A study of Homo sapiens with 12 samples.

Results

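The respiratory chain genes are the messenger RNAs for the subunits of the 5 enzyme complexes of oxidative phosphorylation, and they are split between 2 genomes. Members were chosen by gene symbol: rows named for mitochondrially encoded subunits (MT-ND, MT-CO, MT-CYB and MT-ATP) and for nuclear NDUF, SDH, UQCR, CYC1, COX and ATP5 subunits, with pseudogenes left out. Of 61510 genes in the count table, 216 rows matched these names, 116 of them were pseudogenes, and 100 were members: 13 mitochondrial and 87 nuclear. Of the nuclear members 84 are subunit genes, while UQCRB-AS1 and UQCRFS1-DT are noncoding RNAs and ATP5MF-PTCD1 is a readthrough transcript. The symbol rule leaves out some proteins of the same machinery, such as COX4I1 and cytochrome c (CYCS), which are given separately.

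RNA was sequenced from A549/DDP, a line derived from A549 human lung adenocarcinoma cells and kept in cisplatin (DDP). All cells grew in medium with 1 µg/ml DDP and carried either a control hairpin (shNC) or a hairpin (shNRF2) against NRF2, a transcription factor whose gene is NFE2L2. At 70% confluence each line received DMSO, the solvent, or 4 µM of the compound labelled GNA for 24 h, which gives 4 groups of 3 libraries: shNC DMSO, shNRF2 DMSO, shNC GNA and shNRF2 GNA. Each hairpin is represented by 1 line, and since no label ties the 3 libraries of any group to cultures of their own, the p-values cover only library-to-library spread, which may be technical.

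Complex I takes electrons from NADH and complex II from succinate, complex III passes them to cytochrome c, complex IV hands them to oxygen, and complex V uses the resulting proton gradient to make ATP. Complexes I, III, IV and V combine mitochondrially encoded core subunits with nuclear ones imported from the cytosol, whereas complex II is wholly nuclear. The mitochondrial mRNAs are cut from long transcripts covering most of the circular genome, so their levels share an origin, while each nuclear gene has a promoter of its own. Those promoters often hold sites for nuclear respiratory factor 1 (gene NRF1), for the ETS factor GABP and for YY1. NRF1 is a different protein from NRF2/NFE2L2, the target of the hairpin, which activates antioxidant genes through antioxidant response elements.

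Library totals ran from 12848607 to 17192671 counts. NFE2L2 was lower in all 6 shNRF2 libraries (43.6 to 53.3 CPM, counts relative to the TMM-scaled library total) than in all 6 shNC libraries (74.4 to 90.2 CPM). Replicate 1 of shNC DMSO stood apart: its counts differed from those of replicates 2 and 3 with chi-square values, divided by their degrees of freedom, of 8.05 and 6.31, against 2.27 to 5.31 for all other pairs within a group. Of 8 markers for the A549 epithelial type, 4 were over 1 CPM (KRT8, KRT18, EPCAM and CDH1), and KRT19, NKX2-1, SFTPB and SFTPC were not. The summed level of the marker list was 15289 to 16547 CPM in the 6 DMSO libraries. It was 9459 to 10024 CPM in the 6 GNA libraries, and its part in the results below was not tested. Nearly all of this sum is KRT8 and KRT18, with 183483 and 43804 counts in replicate 1 of shNC DMSO. CDH1 went the other way in shNC, with 451, 522 and 546 counts in DMSO and 591, 773 and 744 in GNA. In shNRF2 its counts were 1096, 820 and 750 with DMSO and 868, 999 and 1156 with GNA. EPCAM had 48, 42 and 47 counts in shNC DMSO and 50, 53 and 53 in shNC GNA. Endothelial and leukocyte markers summed to under 1 CPM in every library and fibroblast markers to 7.05 to 9.70 CPM. Because these are bulk libraries, fewer cells of a type and less RNA per cell cannot be told apart.

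As a share of all counts, mitochondrial mRNAs far outweighed the nuclear subunit mRNAs, and both were smallest in shNRF2 cells given GNA. The 13 mitochondrial mRNAs took 5.98, 4.71 and 4.95% of counts in replicates 1, 2 and 3 of shNC DMSO (the order used throughout) and 4.46, 4.73 and 4.83% with GNA. They took 6.21, 6.15 and 5.44% in shNRF2 DMSO and 4.22, 4.23 and 4.20% in shNRF2 GNA. The GNA libraries of the shNRF2 line thus lay below all 9 others, whereas in shNC replicate 2 with DMSO lay within the range of the GNA libraries.

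The 84 nuclear subunit genes took 0.719, 0.843 and 0.788% of counts in shNC with DMSO and 0.687, 0.610 and 0.601% with GNA. In shNRF2 the corresponding shares were 0.629, 0.659 and 0.690% with DMSO and 0.542, 0.547 and 0.533% with GNA. GNA libraries lay below DMSO libraries in either line, with no overlap. The ratio of mitochondrial to nuclear counts was 6.73 ± 1.42 (SD, n = 3) in shNC and 9.03 ± 1.02 in shNRF2 with DMSO, and 7.43 ± 0.823 and 7.80 ± 0.0745 with GNA. MTATP6P1, a nuclear copy of MT-ATP6, shares the reads of that gene and held 12.5 to 14.1% of their joint counts.

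**Figure D1:**
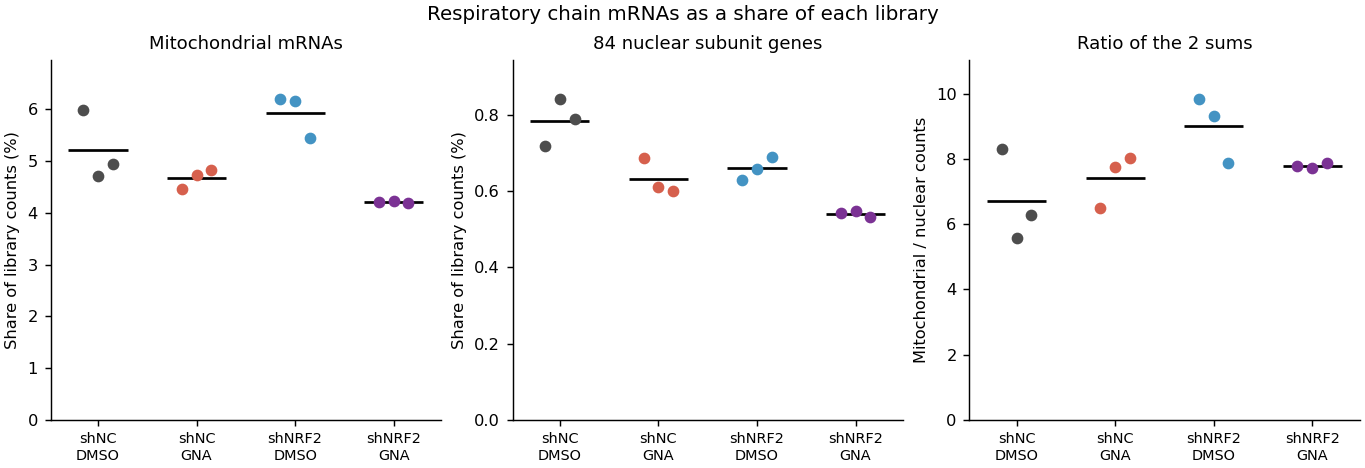
Share of each library's counts in the 13 mitochondrial mRNAs (left) and in the 84 nuclear subunit genes (middle), in %, and the ratio of the 2 sums (right). Points are libraries and bars are means of 3. The shNRF2 GNA libraries sit lowest in the left and middle panels, and replicate 1 of shNC DMSO, at 5.98%, lies above the other shNC libraries on the left.

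Compared per length, as FPKM (counts per kilobase of gene and scaled to the library total) averaged over the 12 libraries, the most abundant member was MT-CO3 at 17526, followed by MT-ATP6 at 7236, MT-ATP8 at 6236 and MT-CO1 at 5488. MT-ND3 was the lowest mitochondrial mRNA at 1298 and still lay above every nuclear member. Among nuclear members NDUFS5, an accessory subunit of complex I, stood highest at 1119 FPKM, followed by COX7C at 298, NDUFA1 at 194 and ATP5F1B, the catalytic beta subunit of ATP synthase, at 181.

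Some nuclear members were counted at low levels, and some of these were too low to test. SDHA, the flavoprotein of complex II, stood at 0.497 FPKM against 13.6 for its partner SDHB, and 4 pseudogene rows carry its name. Of the 84 nuclear subunit genes 25 share exon bases on the same strand with another annotated gene, with a median of 2.19 FPKM, and the 59 that share none had a median of 17.9. How far shared sequence lowered these counts was not tested. 78 of the 84 and all 13 mitochondrial mRNAs passed the filter on low counts. The heart and muscle isoforms COX6A2 (0 counts) and COX7A1 (42 counts over all libraries) did not pass, nor did COX6B2, COX7B2, COX8C and ATP5MGL. The 3 members that are not subunit genes did not pass either.

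With GNA in the control line, 10 of 13 mitochondrial mRNAs fell and 0 rose (edgeR quasi-likelihood test, Benjamini-Hochberg adjusted p under 0.05), with a median log2 fold change of -0.34. Over all genes tested 16.1% were called lower and 14.6% higher in this comparison, and the median was 0.02. In the shNRF2 line all 13 fell (median -0.62), beside 17.0% of all genes lower and 16.7% higher and a median of 0.01. All 3 GNA libraries lay below all 3 DMSO libraries for 10 of the 13 in shNC and for 13 in shNRF2, against 20.2% and 22.1% of all genes. The 3 mitochondrial mRNAs that did not pass in shNC were MT-ND5, MT-ND6 and MT-CO1.

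MT-ND3, a small membrane subunit of complex I, had the largest fall among the mitochondrial mRNAs in either line. It measured 602, 541 and 518 CPM in shNC DMSO and 381, 365 and 357 CPM in shNC GNA. In shNRF2 it measured 599.5, 602 and 543 CPM with DMSO and 300.2, 311 and 314 CPM with GNA. GNA and DMSO libraries did not overlap in either line, and the GNA libraries of shNRF2 lay below those of shNC. The log2 fold change was -0.59 ± 0.05 (SE) in shNC (edgeR adjusted p = 2.05e-09) and -0.91 ± 0.05 in shNRF2 (edgeR adjusted p = 1.96e-13), which left 66.4% and 53.1% of the DMSO level.

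MT-ND5, a proton-pumping subunit of complex I, showed another pattern. Its level was 5118, 3943 and 4550.1 CPM in shNC DMSO and 4169, 4696 and 4836 CPM in shNC GNA. The shNRF2 line had 7160.3, 6992 and 6289.9 CPM with DMSO and 5122, 5144 and 4901 CPM with GNA. In shNC the GNA libraries lay inside the DMSO range (0.01 ± 0.07, edgeR adjusted p = 0.934). In shNRF2 the DMSO libraries were the highest of all 12, and GNA lowered the level by 0.43 on the log2 scale (SE 0.07, edgeR adjusted p = 8.80e-06).

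MT-ND6 is the sole mitochondrial subunit mRNA read from the other strand, and its counts followed those of MT-ND5. The 2 genes adjoin, with MT-ND5 ending at base 14148 and MT-ND6 starting at base 14149. Their mean levels were close, at 2890 FPKM for MT-ND5 and 2964 FPKM for MT-ND6. Whether reads were counted by strand is not known here, and how far the 2 counts are separate was not tested. The change of MT-ND6 with GNA was -0.14 ± 0.07 in shNC (edgeR adjusted p = 0.155) and -0.54 ± 0.07 in shNRF2 (8.69e-07). The other 4 complex I mRNAs fell in both lines. The log2 changes in shNC and shNRF2 were -0.34 and -0.62 for MT-ND1, -0.46 and -0.71 for MT-ND2, -0.21 and -0.41 for MT-ND4, and -0.26 and -0.42 for MT-ND4L, whose reading frame overlaps that of MT-ND4.

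MT-CYB, the cytochrome b of complex III, fell by 0.47 in shNC and by 0.75 in shNRF2 on the log2 scale (SE 0.06 each, edgeR adjusted p = 1.92e-06 and 4.75e-10). Of the complex IV core subunits, MT-CO1, which holds the oxygen-binding centre, measured 9464, 7516 and 8245 CPM in shNC DMSO and 7876, 8517 and 8768 CPM in shNC GNA. The shNRF2 libraries had 10332, 10125 and 8771 CPM with DMSO and 7453, 7323 and 7412 CPM with GNA. The groups overlapped in shNC (a change of less than its standard error of 0.06, edgeR adjusted p = 0.975) and were separate in shNRF2 (-0.40 ± 0.06, 1.26e-05).

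MT-CO2 fell by 0.20 in shNC and by 0.64 in shNRF2, and MT-CO3 by 0.36 and 0.70. The complex V subunits MT-ATP6 and MT-ATP8 share a stretch of sequence and fell by 0.43 and 0.42 in shNC and by 0.54 and 0.64 in shNRF2. Without replicate 1 of shNC DMSO, 8 of the 13 were called lower in shNC, and the calls of MT-CO2 and MT-ND4 were lost. The 2 limma fits on log2 FPKM called 5 of the 13 in shNC.

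**Figure D2:**
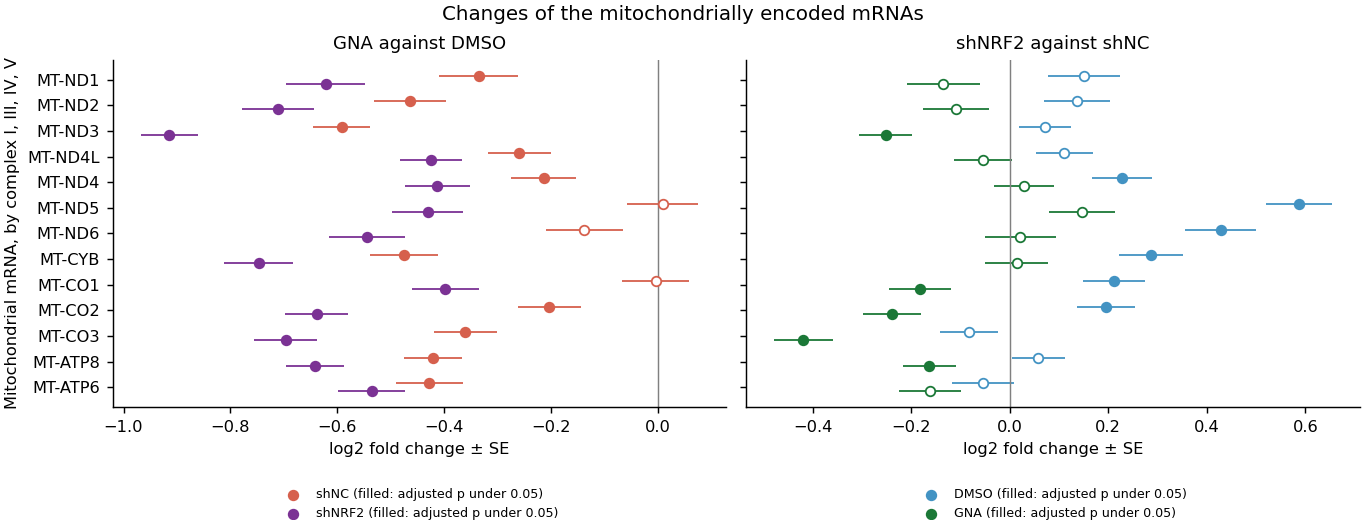
Log2 fold changes of the 13 mitochondrial mRNAs with GNA (left) and with the NRF2 hairpin (right), with standard errors as bars. Filled points have an edgeR adjusted p under 0.05. On the left, the shNRF2 points lie further below 0 than the shNC points for all 13, from -0.91 for MT-ND3 to -0.40 for MT-CO1.

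The mix of mitochondrial mRNAs also shifted. MT-CO1 made up 15.4 ± 0.369% (SD, n = 3) of mitochondrial mRNA counts in shNC with DMSO and 18.3 ± 0.274% with GNA, and 16.2 ± 0.284% and 18.1 ± 0.292% in shNRF2. MT-CYB went the other way, from 3.80 ± 0.106% to 3.28 ± 0.00434% in shNC and from 4.23 ± 0.0629% to 3.71 ± 0.0395% in shNRF2. For both genes the GNA and DMSO ranges did not overlap in either line.

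The test of whether the GNA response depended on the hairpin compared the log2 changes of the lines directly. 6 of 13 mitochondrial mRNAs fell more in shNRF2 than in shNC and 0 fell less, beside 3.24% of all genes with a lower response and 3.58% with a higher one. The 6 were MT-ND3 (-0.32 ± 0.08, edgeR adjusted p = 0.00839), MT-ND5 (-0.44 ± 0.09, 0.00403), MT-ND6 (-0.41 ± 0.10, 0.0133), MT-CO1 (-0.39 ± 0.09, 0.00649), MT-CO2 (-0.44 ± 0.08, 0.00140) and MT-CO3 (-0.34 ± 0.08, 0.0133). All 13 differences were negative (median -0.29). Replicate 1 of shNC DMSO bears on this count: without it all 13 were called, and without replicate 3 of shNC DMSO 5 were. The 2 limma fits on FPKM called 1.

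Between the lines in DMSO, 6 mitochondrial mRNAs were higher in shNRF2 and 0 lower, beside 16.8% of all genes called higher and 18.3% lower. MT-ND5 led at 0.59 ± 0.07 (edgeR adjusted p = 9.30e-08), followed by MT-ND6 at 0.43 ± 0.07 (3.19e-05) and MT-CYB at 0.29 ± 0.06 (0.000905). MT-ND4, MT-CO1 and MT-CO2 were the others, at 0.20 to 0.23. The count was 9 without replicate 1 of shNC DMSO and 3 without replicate 2. All shNRF2 DMSO libraries lay above all shNC DMSO libraries for 2 of the 13, MT-ND5 and MT-ND6, against 21.3% of all genes. For MT-CYB, MT-ND4, MT-CO1 and MT-CO2 the libraries of the lines overlapped.

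In GNA, 5 were lower in shNRF2 and 0 higher, beside 13.3% and 12.8% of all genes. MT-CO3 led at -0.42 ± 0.06 (edgeR adjusted p = 4.60e-06), and MT-ND3, MT-CO2, MT-CO1 and MT-ATP8 followed at -0.25 to -0.16. The count fell to 3 without replicate 2 or 3 of shNC GNA or replicate 1 or 3 of shNRF2 GNA. It was 8 when only the 2 groups compared were fitted. MT-CO1 and MT-CO2 were called higher in shNRF2 with DMSO and lower with GNA. These 2 comparisons share no library with each other but share them with the GNA comparisons above.

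Some nuclear subunit genes of each of the 5 complexes fell with GNA in either line. In shNC 43 of 78 tested fell and 0 rose (median -0.35), beside 16.1% of all genes called lower and 14.6% higher. In shNRF2 45 fell and 2 rose (median -0.29), beside 17.0% and 16.7%. These shares also stand beside the GNA counts by complex below. For 50 and 51 of the 78 all GNA libraries lay below all DMSO libraries, against 20.2% and 22.1% of all genes. For 2 and 3 all GNA libraries lay above, against 20.5% and 22.8% of all genes. 39 fell in both lines, 4 were called in shNC alone, 6 in shNRF2 alone and 29 in neither. The changes in the 2 lines, which come from different libraries, had a Spearman rho of 0.531 across the 78 nuclear genes and of 0.775 across the 13 mitochondrial mRNAs. Genes are not independent replicates.

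The test of the difference between the 2 responses passed for 1 of the 78 nuclear genes, COX7A2L, which had the higher response in shNRF2, and for 0 in the other direction. Over the 78 the median difference was 0.02, against -0.29 over the mitochondrial mRNAs. COX7B, NDUFS5 and SDHB had differences of 0.04, 0.07 and 0.00, each with a standard error of 0.09 to 0.14.

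**Figure D3:**
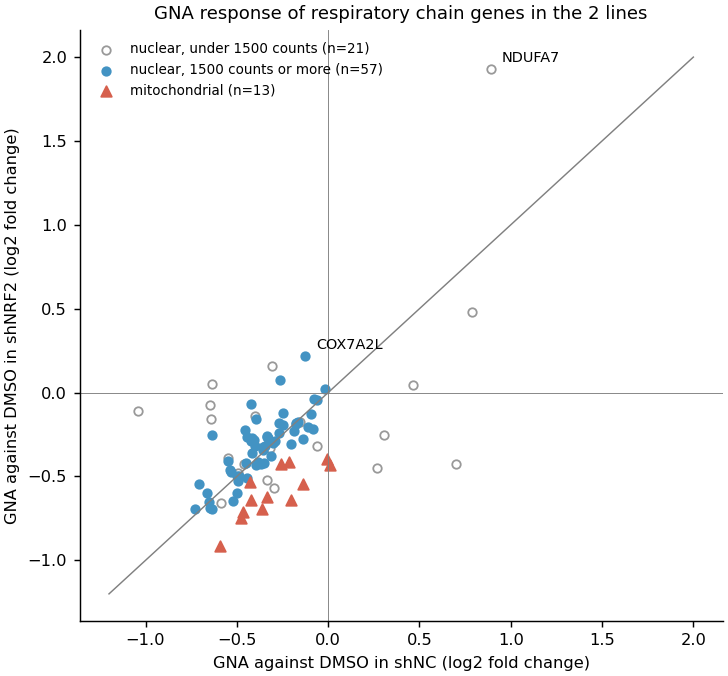
Log2 fold change with GNA in shNC (horizontal) and in shNRF2 (vertical) for each tested member; the diagonal marks equal change. All 13 mitochondrial mRNAs (triangles) lie below the diagonal, while the nuclear genes with 1500 counts or more (n = 57) lie on both sides of it. Open grey points are the 21 nuclear genes under 1500 counts.

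Complex I is the largest complex, with a core of electron-carrying subunits and many accessory ones. Of its 37 nuclear genes 17 fell with GNA in shNC and 18 in shNRF2 (medians -0.30 and -0.25). NDUFS5 measured 781, 961 and 831 CPM in shNC DMSO and 595, 529 and 499 CPM in shNC GNA. In shNRF2 it measured 608, 667 and 670.4 CPM with DMSO and 423, 437 and 424 CPM with GNA. All 4 groups were separate, with shNC DMSO highest, then shNRF2 DMSO, shNC GNA and shNRF2 GNA. Its log2 change with GNA was -0.67 ± 0.06 in shNC (edgeR adjusted p = 5.79e-09) and -0.60 ± 0.06 in shNRF2 (2.45e-08).

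The accessory subunit genes NDUFB3 (-0.64 ± 0.09 and -0.70 ± 0.09), NDUFB1 (-0.65 ± 0.09 and -0.65 ± 0.10) and NDUFA2 (-0.65 ± 0.11 and -0.69 ± 0.11) fell in shNC and shNRF2. NDUFA3 fell in shNC (-0.65 ± 0.19) and changed by -0.08 ± 0.19 in shNRF2, where it did not pass, and the difference of the responses did not pass (0.57 ± 0.27, edgeR adjusted p = 0.222). NDUFS1, the largest iron-sulfur core subunit, measured 115, 118 and 123 CPM in shNC DMSO and 97.4, 96.4 and 95.7 CPM in shNC GNA. It had 126, 122 and 124 CPM in shNRF2 DMSO and 103, 99.2 and 101 CPM in shNRF2 GNA. GNA lowered it by 0.30 in either line (edgeR adjusted p = 4.24e-05 and 3.42e-05) and the 2 lines did not differ beyond their spread in DMSO (0.06 ± 0.05).

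Of the other core genes, NDUFS7 fell in shNC (-0.42 ± 0.15, edgeR adjusted p = 0.0304). NDUFV1 (-0.20 ± 0.06, edgeR adjusted p = 0.0103) and NDUFS8 (-0.30 ± 0.09, 0.0107) fell in shNRF2. In the other line these 3 changed by -0.07, -0.11 and -0.20 without passing. NDUFV2, at 2.09 to 4.17 CPM, changed by 0.47 ± 0.25 and 0.04 ± 0.23, and NDUFA4, which carries a complex I name although its protein is assigned to complex IV, by -0.14 ± 0.13 and -0.28 ± 0.14. NDUFA7 was called higher in shNRF2 (1.93 ± 0.67, edgeR adjusted p = 0.0278) on 97 counts over the 12 libraries. It shares 32.3% of its exon bases with other genes on the same strand, and its call was lost without replicate 2 or 3 of either shNRF2 group.

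Complex II also works in the citric acid cycle, where it oxidizes succinate. Of its 4 nuclear genes 1 fell with GNA in shNC and 2 in shNRF2 (medians -0.29 and -0.38). SDHB, its iron-sulfur subunit, measured 51.3, 58.9 and 51.8 CPM in shNC DMSO and 53.0, 37.6 and 42.5 CPM in shNC GNA. In shNRF2 it measured 36.5, 37.9 and 40.1 CPM with DMSO and 33.4, 29.1 and 31.3 CPM with GNA. In shNC replicate 1 with GNA lay within the DMSO range, and in shNRF2 the groups did not overlap. SDHB fell by 0.29 with GNA in either line (edgeR adjusted p = 0.0166 and 0.0224) and was lower in shNRF2 by -0.50 ± 0.09 in both treatments (0.000107 and 0.000212).

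SDHA fell in shNRF2 (-0.57 ± 0.20, edgeR adjusted p = 0.0297) on few counts and changed by -0.30 ± 0.20 in shNC. The membrane anchor genes SDHC and SDHD changed with GNA by -0.25 ± 0.10 and -0.49 ± 0.19 in shNC and by -0.12 ± 0.10 and -0.48 ± 0.21 in shNRF2, and none of these 4 passed. SDHC was lower in shNRF2 with DMSO (-0.36 ± 0.10, edgeR adjusted p = 0.00563).

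In complex III 7 of 10 genes fell with GNA in each line (medians -0.43 and -0.32). UQCRFS1, which encodes the Rieske iron-sulfur protein, measured 97.2, 108 and 108 CPM in shNC DMSO and 78.2, 72.4 and 72.2 CPM in shNC GNA. The shNRF2 libraries had 82.4, 87.0 and 97.3 CPM with DMSO and 69.5, 56.1 and 59.4 CPM with GNA. No GNA library reached the lowest DMSO library of its line, and the log2 changes were -0.49 ± 0.07 and -0.53 ± 0.07 (edgeR adjusted p = 6.34e-06 and 2.23e-06).

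The core protein genes UQCRC1 (-0.31 ± 0.05 and -0.38 ± 0.05) and UQCRC2 (-0.33 ± 0.06 and -0.27 ± 0.06) fell in shNC and shNRF2, as did the hinge protein gene UQCRH (-0.42 ± 0.07 and -0.36 ± 0.08). CYC1, the cytochrome c1 gene, fell as well (-0.45 ± 0.09 and -0.26 ± 0.10). UQCRQ, a small membrane subunit, fell by 0.46 in shNC and by 0.22 in shNRF2. It measured 297, 361 and 344 CPM in shNC DMSO and 210.1, 216 and 237 CPM in shNRF2 DMSO. That gap between the lines, with no overlap, was the largest in complex III (-0.60 ± 0.07, edgeR adjusted p = 2.57e-07). UQCRHL, a close copy of UQCRH, stood at 1.81 to 3.31 CPM and did not pass in any comparison.

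In complex IV, cytochrome c oxidase, 7 of 10 tested nuclear genes fell with GNA in each line (medians -0.41 and -0.30). COX7B, a small membrane subunit, measured 144, 175 and 154 CPM in shNC DMSO and 103, 90.1 and 92.6 CPM in shNC GNA. In shNRF2 it measured 107, 107 and 111 CPM with DMSO and 65.0, 68.7 and 67.8 CPM with GNA. All 4 groups were separate, in the order shNC DMSO, shNRF2 DMSO, shNC GNA and shNRF2 GNA. GNA left 60.3% of the level in shNC (-0.73 ± 0.06, edgeR adjusted p = 1.20e-09) and 61.9% in shNRF2 (-0.69 ± 0.07, 3.40e-09).

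COX6C fell by 0.53 and 0.48 in shNC and shNRF2, COX6B1 by 0.45 and 0.42, COX5A by 0.37 and 0.42, COX5B by 0.27 and 0.24, and COX7A2 by 0.40 and 0.32. COX6A1 (4.43 to 5.97 CPM) and COX8A (0.921 to 2.70 CPM) passed in no comparison.

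COX7A2L, also called SCAFI or COX7RP, is a relative of COX7A2 that joins complexes III and IV into supercomplexes. It measured 45.3, 51.2 and 49.5 CPM in shNC DMSO and 46.0, 43.9 and 44.1 CPM in shNC GNA. The shNRF2 line had 32.2, 32.5 and 35.0 CPM with DMSO and 41.2, 37.4 and 37.6 CPM with GNA. In shNRF2 all GNA libraries lay above all DMSO libraries, in shNC they overlapped, and every shNRF2 library was below every shNC library. It rose with GNA in shNRF2 (0.22 ± 0.07, edgeR adjusted p = 0.0207) and changed by -0.12 ± 0.07 in shNC (0.184), and the difference of the responses was 0.34 ± 0.10 (0.0363). That difference missed the threshold under 13 of 22 alternative settings (adjusted p from 0.0140 to 0.114 over all 22), while the lower level in shNRF2 with DMSO (-0.55 ± 0.07, 7.78e-07) passed under all 23.

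In complex V, ATP synthase, 11 of 17 tested nuclear genes fell with GNA in each line (medians -0.42 and -0.34). ATP5F1B measured 476, 512 and 502 CPM in shNC DMSO and 362, 344 and 347 CPM in shNC GNA. In shNRF2 it measured 448, 462 and 465 CPM with DMSO and 325, 332 and 316 CPM with GNA. The DMSO and GNA libraries formed 2 separate blocks, and its log2 change was -0.50 in either line (SE 0.04 and 0.05, edgeR adjusted p = 1.83e-09 and 1.12e-09). Within each treatment the shNRF2 libraries lay below the shNC libraries, and ATP5F1B was called lower in shNRF2 with DMSO but not with GNA.

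ATP5F1A, the alpha subunit of the catalytic head, fell by 0.50 and 0.60 in shNC and shNRF2. The peripheral stalk genes ATP5PB and ATP5PO fell too, by 0.49 and 0.59 in shNC and by 0.50 and 0.66 in shNRF2. The membrane ring subunit is encoded by ATP5MC1, ATP5MC2 and ATP5MC3, which make the same mature protein. ATP5MC3 fell by 0.71 and 0.54 in shNC and shNRF2 and ATP5MC1 by 0.39 and 0.43, whereas ATP5MC2 changed by -0.08 ± 0.11 and -0.22 ± 0.11 and did not pass.

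ATP5MK, a small subunit in the membrane part, measured 23.0, 25.4 and 24.4 CPM in shNC DMSO and 19.9, 14.2 and 13.02 CPM in shNC GNA. Its level in shNRF2 was 13.7, 13.2 and 14.3 CPM with DMSO and 10.9, 12.0 and 11.6 CPM with GNA. The shNC DMSO libraries stood above all the rest, and the ranges of shNC GNA and shNRF2 DMSO overlapped. It was lower in shNRF2 with DMSO (-0.82 ± 0.12, edgeR adjusted p = 3.76e-06), the largest fall between the lines among called members. With GNA it fell in shNC (-0.64 ± 0.11, 9.79e-05) and changed by -0.25 ± 0.13 in shNRF2 (0.130), and the difference of the responses did not pass (0.38 ± 0.17, 0.204).

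**Figure D4:**
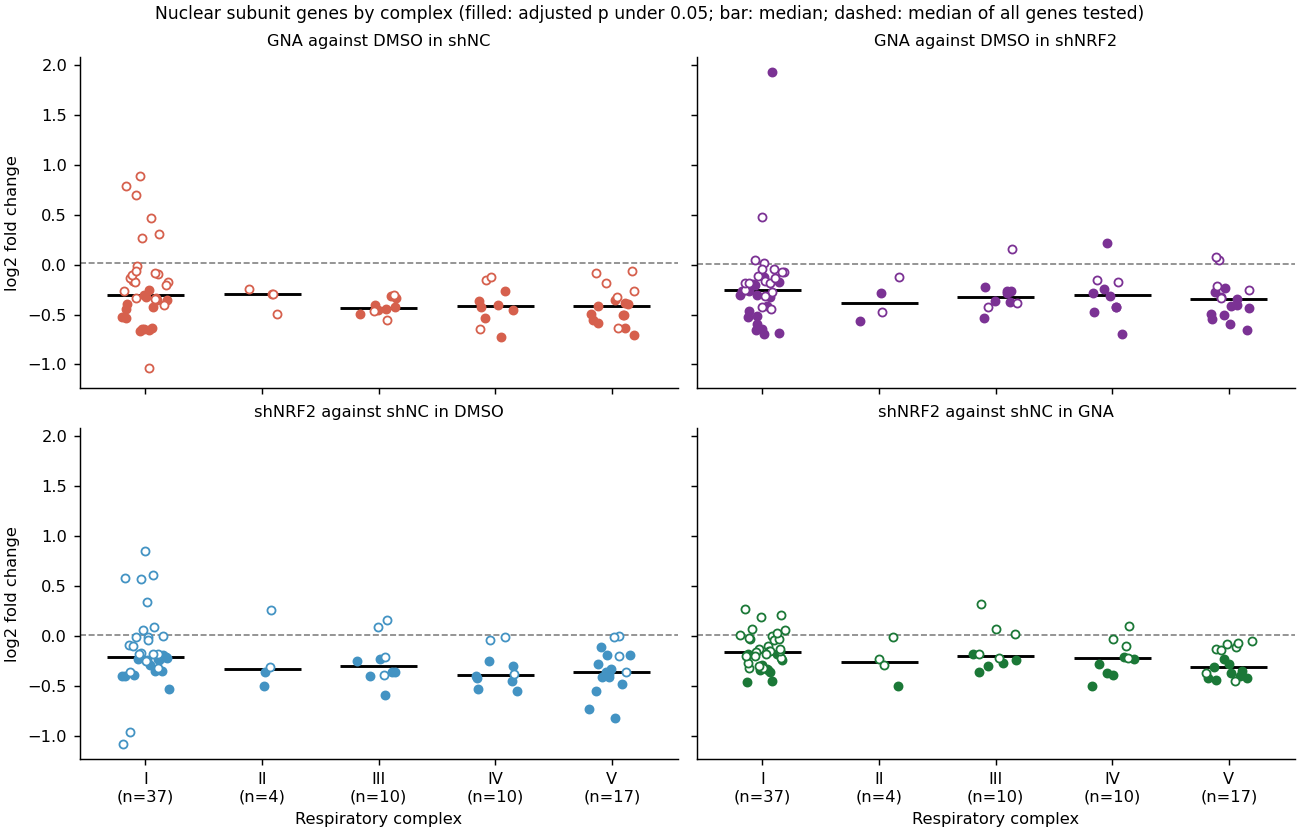
Log2 fold changes of the tested nuclear subunit genes by complex in the 4 pairwise comparisons. Each point is a gene, filled where the edgeR adjusted p is under 0.05; bars are medians and the dashed line is the median of all genes tested. In every panel the medians of all 5 complexes lie below the dashed line, from -0.43 in complex III to -0.16 in complex I.

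The hairpin line had lower nuclear subunit mRNAs in either treatment, opposite in sign to most mitochondrial mRNAs in DMSO. In DMSO 43 of 78 were lower in shNRF2 and 0 higher (median -0.25), beside 18.3% of all genes called lower and 16.8% higher. In GNA 31 were lower and 0 higher (median -0.21), beside 13.3% and 12.8%. These shares also stand beside the counts by complex in the next paragraph. For 43 and 47 all shNRF2 libraries lay below all shNC libraries, beside 21.9% and 19.7% of all genes, and for 2 in each case they lay above, beside 21.3% and 21.2%. 31 genes were lower in both treatments. The count in GNA dropped to 20 without replicate 1 of shNC GNA, and in DMSO the limma fits on FPKM gave 26 and 25.

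By complex, 15 of 37 complex I genes, 2 of 4 complex II genes, 6 of 10 in complex III, 7 of 10 in complex IV and 13 of 17 in complex V were lower in shNRF2 with DMSO. With GNA the counts were 10, 1, 5, 6 and 9. NDUFA1, an accessory subunit of the complex I membrane arm, was lower by 0.53 and 0.46 on the log2 scale in DMSO and GNA. Complex I also had NDUFA8 lower in both (-0.41 ± 0.08 and -0.35 ± 0.09). In complex V, ATP5F1E, the epsilon subunit of the catalytic part, was lower (-0.55 ± 0.07 and -0.41 ± 0.07), as was ATP5MJ (-0.39 ± 0.10 and -0.42 ± 0.10). ATP5ME was lower in DMSO (-0.73 ± 0.26, edgeR adjusted p = 0.0291) at 1.61 to 5.15 CPM. UQCRC1 (0.09 ± 0.05 and 0.02 ± 0.05) and COX5A (-0.05 ± 0.08 and -0.10 ± 0.08), which fell with GNA, did not pass between the lines.

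**Figure D5:**
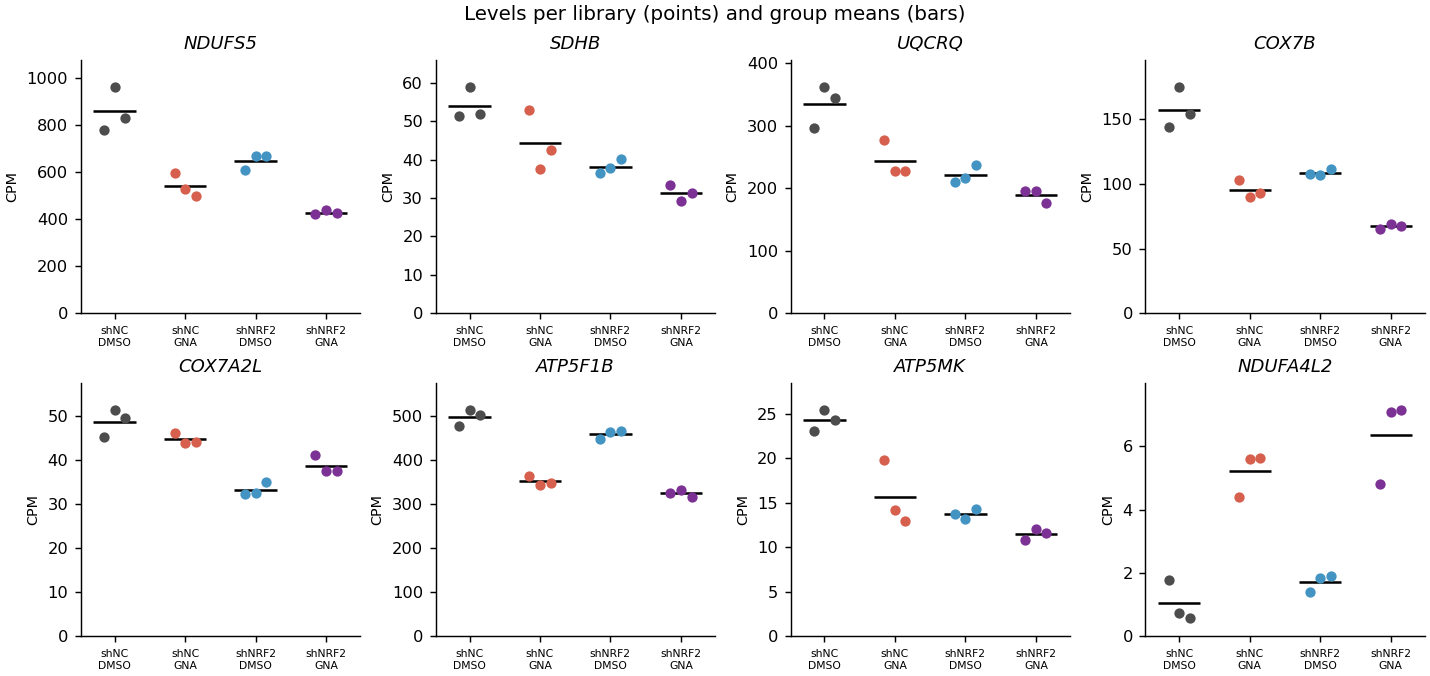
CPM per library for 8 genes, with group means as bars and each axis starting at 0. NDUFS5, COX7B and SDHB were lower with GNA and with the hairpin. ATP5F1B was lower with GNA and, in DMSO, with the hairpin. ATP5MK was lower with the hairpin and, in shNC, with GNA. COX7A2L was higher with GNA in shNRF2, and NDUFA4L2, which is not a member, was higher with GNA in both lines.

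Calls were more frequent among the well-counted nuclear genes. Of the 57 with at least 1500 counts over the 12 libraries, 41 fell with GNA in shNC, 42 in shNRF2, and 42 and 31 were lower in the hairpin line with DMSO and GNA. Over all genes, of any depth, the shares called lower were 16.1%, 17.0%, 18.3% and 13.3%. Shares over all genes of like depth are not given here, so how far depth raised the member counts was not tested. Of the 21 with fewer counts the numbers were 2, 3, 1 and 0, with medians of -0.32, -0.25, -0.20 and -0.05 against -0.37, -0.29, -0.29 and -0.24. Values by gene length are given beside these. For the 9 nuclear members under 1000 bases the median changes with GNA were -0.51 in shNC and -0.26 in shNRF2, against -0.03 and -0.02 over all 923 genes of that length. Between the lines, these members had medians of -0.40 in DMSO and -0.29 in GNA, against -0.05 in both treatments over all genes of that length. Over all genes of 4000 bases or more the medians between the lines were 0.04 in both treatments, and for the 23 nuclear members of that length they were -0.17 and -0.13. The part of length in the results was not tested.

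Promoter letters are given as background, and their part in the changes was not tested. RefSeq promoter windows (GRCh38.p14, 250 bases before to 50 after the start) were at hand for 67 of the 84 nuclear subunit genes and 27305 genes in all, and were searched on both strands. The NRF1 motif (GCGCA and GCGC with any base between them) was in 17 of the 67 (25.4%, against 6.28% of all windows), the ETS motif CCGGAAG in 19 (28.4% against 10.7%) and the YY1 motif AAGATGGC in 11 (16.4% against 3.03%). The antioxidant response element core TGACNNNGC was in 10 (14.9% against 13.6%). Matches of different motifs did not overlap in any of the 67 windows. These shares describe letters and not binding.

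Among the 33 windowed genes that fell with GNA in both lines, the shares were 21.2% for NRF1, 24.2% for ETS and 15.2% for YY1. The antioxidant core was in 12.1% of them. Among the 27 that were lower in the hairpin line in both treatments, 14.8% held the antioxidant core and 14.8% the NRF1 motif. The ETS motif was in 33.3% of them and the YY1 motif in 11.1%. The stretches below show examples with the motif in capitals (on either strand). They were chosen after the values were seen, as stretches upstream of the start that no annotated exon overlaps, and run 5′ to 3′ on the strand of the gene.
NDUFA12 with the NRF1 motif, chr12:95003784-95003833, minus strand: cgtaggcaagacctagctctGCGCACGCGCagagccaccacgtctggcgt
NDUFB4 with the NRF1 motif, chr3:120596253-120596302, plus strand: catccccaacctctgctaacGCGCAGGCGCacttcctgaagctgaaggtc
NDUFB7 with the ETS motif, chr19:14572067-14572110, minus strand: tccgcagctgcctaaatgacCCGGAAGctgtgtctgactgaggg
ATP5PD with the ETS motif, chr17:75047044-75047090, minus strand: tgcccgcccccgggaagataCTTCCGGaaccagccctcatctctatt

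Of these 4, NDUFA12, an accessory subunit of complex I, fell with GNA by 0.25 in shNC and by 0.19 in shNRF2 (edgeR adjusted p = 0.00602 and 0.0313). ATP5PD, a stalk subunit of ATP synthase, fell in shNRF2 (-0.23 ± 0.08, 0.0205) and changed by -0.19 ± 0.07 in shNC (0.0599). NDUFB4 (-0.35 ± 0.14 and -0.32 ± 0.14) and NDUFB7 (-0.18 ± 0.08 and -0.19 ± 0.09) did not pass with GNA in shNC or shNRF2. All 4 were lower in shNRF2 with DMSO, by 0.19 to 0.35 on the log2 scale, beside 18.3% of all genes called lower. Since they were chosen after the values were seen, this count says nothing about genes with these motifs. Of the genes with such a stretch that are not shown, NDUFA3 and UQCR11 were not called lower there and COX8C was not tested.

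Of 10 tested respiratory proteins outside the symbol rule, 5 fell and 1 rose with GNA in shNC, and 7 fell and 1 rose in shNRF2. The shares of all genes were 16.1% lower and 14.6% higher in shNC and 17.0% and 16.7% in shNRF2. COX4I1, a nuclear subunit of complex IV, measured 948, 1082 and 1035 CPM in shNC DMSO and 881, 790.3 and 763 CPM in shNC GNA. It had 723, 754 and 780.4 CPM in shNRF2 DMSO and 645, 671 and 673 CPM in shNRF2 GNA. GNA libraries lay below DMSO libraries in both lines (-0.33 ± 0.05 and -0.18 ± 0.05, edgeR adjusted p = 2.04e-05 and 0.00872). CYCS fell by 0.41 and 0.18, and ATP5IF1, the inhibitor of ATP synthase, by 0.47 in either line.

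The gene that rose was NDUFA4L2, a paralogue of NDUFA4 induced in hypoxia. It measured 1.79, 0.736 and 0.594 CPM in shNC DMSO and 4.39, 5.61 and 5.65 CPM in shNC GNA. In shNRF2 it measured 1.41, 1.84 and 1.92 CPM with DMSO and 4.83, 7.09 and 7.14 CPM with GNA. All 6 GNA libraries lay above all 6 DMSO libraries (2.34 ± 0.29 and 1.90 ± 0.26, edgeR adjusted p = 3.89e-07 and 1.79e-06), on 9 to 116 counts a library.

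Assembly factors build the complexes without being part of them. Of 55 tested, 15 fell and 6 rose with GNA in shNC, beside 16.1% and 14.6% of all genes. In shNRF2 9 fell and 5 rose, beside 17.0% and 16.7% of all genes. The list's share of falls thus lay near that of all genes in shNRF2 and above it in shNC. In the hairpin line 18 were lower and 2 higher with DMSO, beside 18.3% and 16.8%, and 9 were lower and 0 higher with GNA, beside 13.3% and 12.8%. COX14 (-0.55 ± 0.10) and COA6 (-0.52 ± 0.10), which serve complex IV, fell in shNC, and HIGD1A (-0.88 ± 0.18), COX14 (-0.86 ± 0.10) and COA6 (-0.85 ± 0.10) were lower in shNRF2 with DMSO.

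Genes that transcribe and stabilize mitochondrial RNA fell with GNA in 8 of 15 cases in shNC (0 rose) and in 5 of 15 in shNRF2 (1 rose). Of all genes 16.1% were called lower and 14.6% higher in shNC, and 17.0% and 16.7% in shNRF2. SLIRP, which with LRPPRC stabilizes mitochondrial mRNAs, fell by 0.57 and 0.21 in shNC and shNRF2 (edgeR adjusted p = 1.44e-07 and 0.0126). POLRMT, the mitochondrial RNA polymerase, fell by 0.23 in shNC and by 0.43 in shNRF2. It was higher in shNRF2 with DMSO (0.32 ± 0.06, edgeR adjusted p = 0.000318). TFAM, which packages mitochondrial DNA and starts its transcription, fell by 0.38 and 0.29.

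Among 12 regulators of nuclear respiratory genes, 3 fell and 1 rose with GNA in shNC, and 4 fell and 2 rose in shNRF2. The shares of all genes were 16.1% lower and 14.6% higher in shNC and 17.0% and 16.7% in shNRF2. PPARGC1A, the coactivator PGC-1α, measured 36.9, 37.5 and 37.1 CPM in shNC DMSO and 37.1, 38.3 and 38.1 CPM in shNC GNA. The shNRF2 line had 52.8, 57.8 and 56.4 CPM with DMSO and 48.1, 44.6 and 46.1 CPM with GNA. Every shNRF2 library was above every shNC library (0.58 ± 0.07 in DMSO and 0.29 ± 0.07 in GNA, edgeR adjusted p = 7.91e-08 and 0.00144), opposite in sign to most nuclear subunit genes. NRF1 and GABPA changed by at most 0.21 in size in the 4 pairwise comparisons and passed in none, and were named after their values were seen. YY1, also named after its values were seen, had 1407, 1620 and 1507 counts in shNC DMSO and 1070, 1187 and 1405 in shNC GNA. With the NRF2 hairpin YY1 had 1368, 858 and 977 counts in DMSO and 1005, 784 and 1204 in GNA. GABPB1 and GABPB2, the other GABP genes of the list, were also named after their values were seen. GABPB1 had 156, 215 and 224 counts in shNC DMSO and 233, 240 and 249 in shNC GNA. In shNRF2 it had 183, 171 and 153 counts with DMSO and 262, 279 and 301 with GNA. GABPB2 had 297, 313 and 283 counts in shNRF2 DMSO and 356, 418 and 423 in shNRF2 GNA. Among 10 genes of mitochondrial DNA copying and protein import, 6 fell and 1 rose with GNA in shNC and 5 fell in shNRF2. The shares of all genes given above stand beside these counts too. The outer membrane channel VDAC1 changed by -0.37 ± 0.05 and -0.29 ± 0.05.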

How the data were processed

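Total RNA of 12 libraries (3 in each of 4 groups) was sequenced. The authors deposited raw counts per gene and FPKM values; per the submitters' processing notes the build was GRCh38 and DESeq2 was used, in a role not stated. For the aligner, the counter and the gene annotation, versions and names were not given in the sources used here. FPKM as deposited equal counts divided by the column total and a fixed length per gene (relative tolerance 0.001, 100% of 15653 genes), so they served for levels per length and as an alternative unit.

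Genes passed filterByExpr (minimum count 10, minimum total 15), leaving 15653. Counts were scaled by TMM and fitted with edgeR 4.0.16 (glmQLFit, glmQLFTest; R 4.3.3) on all 12 libraries, with a coefficient for each group (8 residual degrees of freedom). P-values were adjusted by Benjamini-Hochberg over all genes in each of 5 comparisons, and calls use 0.05. The SE is the log2 fold change divided by the square root of F. CPM are on TMM-scaled totals. The script was tested on simulated data. Positions come from GENCODE 29, matched by Ensembl ID for all 100 members.

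Named genes are the 13 mitochondrial mRNAs, fixed core and isoform genes, up to 3 called members each way per complex and comparison, 5 fixed non-members, and from each context list the 2 largest called changes each way. The values of 1 of the fixed genes are not reported here. Exceptions are marked as named after their values were seen, and they also include COX7C, NDUFB4, NDUFB7, NDUFA12, ATP5PD and UQCR11. Members and lists were chosen with earlier results of these data known. Alternatives were DESeq2 1.42.0, limma 3.58.1 on log2(FPKM + 1) and log2(FPKM + 0.1), 4 other scalings, 2 other filters, a fit of the compared groups alone, a replicate block, and leaving out each library. Single-cell data named in the series were not analysed here.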

Additional observations from a re-analysis of the deposited data

Results flagged for a closer look

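Among the 91 tested members and the genes of the context lists, for 14 the response to GNA differed between the lines by the test of the difference itself (log2 change in shNRF2 minus that in shNC, edgeR adjusted p under 0.05). Over all 15653 genes tested, 3.58% had a higher response in shNRF2 and 3.24% a lower one. The 6 of 13 mitochondrial mRNAs that differed had the lower response in shNRF2: MT-CO1 (-0.39), MT-CO2 (-0.44), MT-CO3 (-0.34), MT-ND3 (-0.32), MT-ND5 (-0.44) and MT-ND6 (-0.41). Of 78 nuclear subunit genes 1, COX7A2L (0.34), had the higher one.

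Of 55 assembly factors 6 differed. COA6 (0.63) and COX19 (0.66), both for complex IV, had higher responses in shNRF2, while TTC19 (-0.54), FOXRED1 (-0.36) and ATPAF1 (-0.54) had lower ones. COA6 fell with GNA in shNC and changed by 0.12 in shNRF2, COX19 rose in shNRF2 by 0.85 and changed by 0.19 in shNC, and TTC19 rose in shNC by 0.59 and changed by 0.05 in shNRF2. FOXRED1 fell in shNRF2 by 0.35 and changed by 0.00 in shNC. NDUFAF8, a complex I assembly factor, differed by -2.07. It measured 107, 35.8 and 32.0 CPM in shNC DMSO, 229, 228 and 222 CPM in shNC GNA, 39.0, 21.1 and 19.9 CPM in shNRF2 DMSO and 27.5, 14.6 and 33.5 CPM in shNRF2 GNA. The rise in shNC separated the groups, and replicate 1 was the highest library of either DMSO group. SLIRP, 1 of 15 genes of the mitochondrial RNA maintenance list, differed by 0.35. The calls of TTC19, ATPAF1 and FOXRED1 were lost under 13, 11 and 11 of 22 alternative settings.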

How the results depend on the processing

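Under the alternatives tried, no called change of a member turned its direction. The mitochondrial fall in shNRF2 (13 of 13) and the nuclear counts of lower genes with GNA stayed within 1.5 times of the reported values. Libraries with the same replicate number did not deviate together: of 18 same-numbered pairs 0 had a correlation of deviations over 0.1 (-0.044 to 0.027). With a replicate block, 1 nuclear gene rose with GNA in shNC (0 as reported) and 0 had a higher response in shNRF2 (1 as reported); the block moved no other count by over 1.5 times.

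Limma on log2(FPKM + 1) and on log2(FPKM + 0.1) called 5 and 5 mitochondrial mRNAs lower with GNA in shNC, 2 and 2 lower between the lines in GNA, 1 and 1 for the difference, and 26 and 25 nuclear genes lower between the lines in DMSO. Counts of nuclear genes called higher were small and moved: 1 with upper-quartile factors, library totals or limma in shNC GNA; 1 without a filter, with 1 CPM in 3 libraries or with only the compared groups in shNRF2 GNA; 1 with upper-quartile factors or limma and 2 with library totals between the lines in DMSO; 0 for the difference with library totals, without a filter and with limma. Without a filter or with only the compared groups, 8 mitochondrial mRNAs were lower and 1 higher between the lines in GNA, and without a filter 11 differed in response. Library totals moved the median of all genes with GNA in shNC to 0.12, where the mitochondrial median was -0.23 and the nuclear one -0.25. The mitochondrial share in shNRF2 GNA was 4.21% as reported, 4.28% with nuclear copies and 4.08% of the TMM-scaled total.

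Leaving out each library gave, for mitochondrial mRNAs, 8 to 11 lower with GNA in shNC, 3 to 9 higher between the lines in DMSO, 3 to 6 lower and 0 to 1 higher in GNA, and 5 to 13 for the difference. For nuclear genes it gave 0 to 1 higher with GNA in shNC, 0 to 2 in shNRF2, 0 to 2 between the lines in DMSO and 0 to 4 for the difference (3 without replicate 1 of shNC DMSO, 4 without replicate 1 of shNC GNA, 0 without 8 others). Nuclear genes lower between the lines in GNA numbered 20 to 37, and in DMSO 29 to 48. Of the 21 tested nuclear genes under 1500 counts 0 to 3 were called lower in a pairwise comparison; the part of depth in that was not tested.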
